A study of Homo sapiens with 36 samples.

Results

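UCA1 and its neighbours of the CYP4F cluster are 8 genes on chromosome 19, of 45478 genes in the count table: UCA1, LINC01764, CYP4F2, CYP4F3, CYP4F8, CYP4F11, CYP4F12 and CYP4F22. They were chosen by their place at this locus and by their CPM (counts scaled to a fixed library size) across all 12 groups of the study, so their levels and their differences between cell states and between antibodies are given as a description with no test. The study used RNA sequencing of A498 and 786-O, established lines of clear cell renal cell carcinoma, as cells selected for resistance to sunitinib (2 µM for A498, 4 µM for 786-O), a drug that blocks receptor tyrosine kinases of blood vessel growth, and as the parental cells. Each of these 4 cell states was treated for 24 h with durvalumab, avelumab or atezolizumab, antibodies that bind PD-L1, at 10 mg/mL as the labels write it, with 3 libraries per group and 36 in all. All libraries therefore carry an antibody, and untreated libraries were not analysed here.

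UCA1, urothelial cancer associated 1, is a long noncoding RNA first described in bladder carcinoma and since studied in many tumours for its links to growth and to drug response. The CYP4F genes encode microsomal cytochrome P450 enzymes that hydroxylate fatty acids and eicosanoids at or near the omega end of the chain, with electrons passed on by the reductase POR and by cytochrome b5. CYP4F2 and CYP4F3 are known for inactivating leukotriene B4 and making 20-HETE, CYP4F2 and CYP4F11 for hydroxylating vitamin K, CYP4F8 for hydroxylating prostaglandins in seminal vesicle, CYP4F12 for metabolising antihistamines, and CYP4F22 for making the skin's acylceramides.

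The 8 genes span 426 kb on GRCh38 (chr19:15508493-15934867), as placed by GENCODE release 29. From the lower end upward these are CYP4F22 (chr19:15508493-15552317), CYP4F8 (chr19:15615218-15630638), CYP4F3 (chr19:15640897-15662825) and CYP4F12 (chr19:15672757-15697174), all on the plus strand. LINC01764 (chr19:15827045-15835853, minus strand) and UCA1 (chr19:15828206-15836326, plus strand) follow, and then CYP4F2 (chr19:15878023-15898120) and CYP4F11 (chr19:15912367-15934867) on the minus strand. UCA1 and LINC01764 are noncoding, and the other members are protein coding.

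LINC01764 lies across UCA1 on the other strand. Of its 669 exonic bases, 73.1% are also exonic in UCA1, and 180 bases of exon lie outside it. Of the 4152 exonic bases of UCA1, 11.8% are under LINC01764. A read from the shared stretches can belong to either gene by position.

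How the deposited counts treat overlapping genes was looked at over all genes of the annotation. Of 332 genes of at least 200 exonic bases that lie wholly under opposite-strand exons of a gene with at least 3600 counts, 329 are in the table, with counts per base a median of 1.51 times those of the covering gene (quartiles 0.459 and 2.22). Of 223 genes lying wholly under exons of the same strand, 9 are in the table. The 2 kinds of overlap thus differ, and the reason was not tested. How reads were assigned where the exons of UCA1 and LINC01764 overlap is not known. LINC01764 is therefore not taken as a second, independent reading of the locus.

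The CYP4F members differ in how alike they are in sequence. CYP4F2 and CYP4F3 share 94.7% of 1560 aligned coding bases, the highest identity among the 6 genes, whereas CYP4F22 is between 65.3% and 68.0% identical to each of the others. The 60 coding bases around the haem-binding signature of P450 enzymes show how close the copies are. They are read from GENCODE transcripts on the strand of each gene, and capitals mark bases that differ from CYP4F11, the CYP4F gene with the highest level in these libraries. An intron interrupts each window, so the genomic span runs past 60 bases.
CYP4F11 (chr19:15913882-15914336): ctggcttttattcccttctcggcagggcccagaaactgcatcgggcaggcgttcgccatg
CYP4F2 (chr19:15878909-15879377): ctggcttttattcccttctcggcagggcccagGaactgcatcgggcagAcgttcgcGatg
CYP4F3 (chr19:15658778-15659247): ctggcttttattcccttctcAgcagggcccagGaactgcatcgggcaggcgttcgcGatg
CYP4F12 (chr19:15696481-15696935): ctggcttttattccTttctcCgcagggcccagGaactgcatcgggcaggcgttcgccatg
CYP4F8 (chr19:15628812-15629220): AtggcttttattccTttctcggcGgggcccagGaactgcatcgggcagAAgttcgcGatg
CYP4F22 (chr19:15550725-15551321): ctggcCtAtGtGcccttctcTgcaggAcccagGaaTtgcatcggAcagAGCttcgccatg

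CYP4F2, CYP4F3 and CYP4F12 each differ from CYP4F11 at 3 of these bases, CYP4F8 at 7 and CYP4F22 at 12. A read fits more than 1 gene exactly only where the copies agree over its whole length. Over whole transcripts, 6.02% of the 75-base words of CYP4F2 and 3.64% of those of CYP4F3 also occur in another gene, in both cases in each other, so low counts of these genes are uncertain. For CYP4F11 that share is 0.0%, for CYP4F12 0.569% and for CYP4F8 0.22%.

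Total counts ran from 19994882 to 58122896 per library, and levels below are CPM over these totals, as mean ± SD over the 9 libraries of a cell state or the 3 of a group. Each cell state carries a batch label of its own, so the effects of resistance and of batch cannot be told apart, while antibodies are compared inside 1 batch. The set labelled A498 resistant stands apart from its label: HIF1A, which encodes the oxygen-sensing factor subunit whose protein 786-O cells are known to lack, was at 8.99 ± 0.49 CPM there and at 294 ± 7.37 CPM in A498 parental cells, against 8.71 ± 0.424 CPM in 786-O resistant and 9.36 ± 0.571 CPM in 786-O parental cells. Over 16629 genes, which are not independent replicates, its mean profile correlated with 786-O resistant at r = 0.989, with 786-O parental at r = 0.960 and with A498 parental at r = 0.885. A498 resistance values are therefore differences between libraries as labelled. The kidney marker PAX8 was at 224 ± 9.74 CPM in the set labelled A498 resistant, 235 ± 13.0 CPM in A498 parental, 230 ± 9.89 CPM in 786-O resistant and 291 ± 17.6 CPM in 786-O parental cells, and CA9, which marks clear cell carcinoma, at 0.0103 ± 0.0204 CPM in the set labelled A498 resistant, 1.27 ± 0.364 CPM in A498 parental, 0.00346 ± 0.0104 CPM in 786-O resistant and 0.0198 ± 0.0168 CPM in 786-O parental cells, with 38.5% of its exons under the opposite strand. Whether the 3 libraries of each group stem from different cultures is not stated, so a p-value here reflects the spread among samples that may be technical replicates.

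UCA1 was the most abundant member, near 196 CPM in both sets labelled resistant, lower in 786-O parental cells and almost absent from A498 parental cells. The set labelled A498 resistant held 189, 194 and 209 CPM (lowest, median and highest of 9), with a mean of 196 ± 6.37 CPM. A498 parental libraries held 0.0, 0.057 and 0.13 CPM, with 16 counts in all and none in 2 of the 9 libraries. These groups do not overlap, and the ratio of CPM pooled over libraries was 3730 (exact 95% counting interval 2296 to 6526). In 786-O, resistant libraries held 169, 197 and 211 CPM with a mean of 196 ± 11.6 CPM, against 30.8, 40.0 and 43.8 CPM and a mean of 37.9 ± 4.76 CPM in parental libraries. These groups do not overlap either.

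The log2 change of UCA1, resistant minus parental, was 11.88 ± 0.071 (SE) in A498 as labelled and 2.27 ± 0.031 in 786-O. Here and below, the SE is the log2 change divided by the square root of its quasi-likelihood F statistic. It is too small where 1 side has few counts, as with the 16 UCA1 counts of A498 parental libraries. The A498 value ranked 1 of 19458 genes tested, counted from the highest, and the 786-O value ranked 916 of 19369. The members were listed from these same levels, and the A498 value rests on few parental counts, so nothing is read from the ranks. Between the set labelled A498 resistant and the 786-O resistant libraries UCA1 differed by -0.02 ± 0.028. Under durvalumab alone the A498 value was 11.06 and under atezolizumab alone 12.82, with 9 and 2 parental counts. In bulk RNA, fewer cells that carry a transcript and less transcript per cell cannot be told apart.

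LINC01764 followed UCA1 in every state. It was at 55.6 ± 2.6 CPM in the set labelled A498 resistant and 0.0292 ± 0.0236 CPM in A498 parental cells, where 9 counts were found in all. It was at 53.9 ± 4.30 CPM in 786-O resistant and 11.6 ± 1.74 CPM in 786-O parental cells. The log2 changes were 10.60 ± 0.096 in A498 as labelled and 2.12 ± 0.036 in 786-O. Per kb of exon LINC01764 reached 83.2 CPM in the set labelled A498 resistant, against 47.2 CPM per kb for UCA1.

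LINC01764 took nearly the same share of the counts of the pair wherever the pair was expressed. That share was 22.1% ± 0.669 in the set labelled A498 resistant, 21.6% ± 0.713 in the 786-O resistant set and 23.4% ± 0.933 in 786-O parental cells (SD, n = 9 each). Single libraries lay between 20.7% and 25.1% over the 3 states. A498 parental libraries were left out of this share because their summed counts fell to 0 in some libraries.

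**Figure D1:**
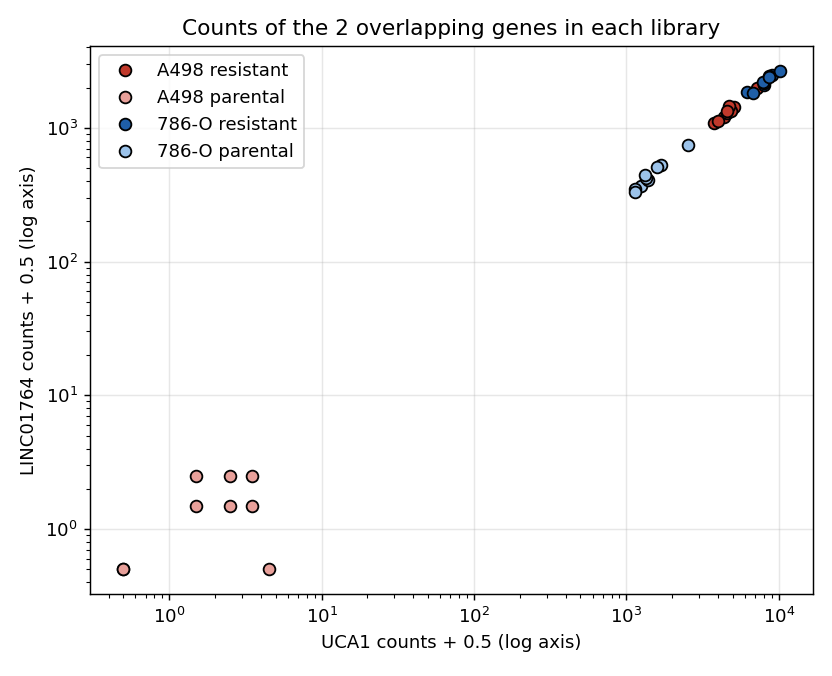
Counts of LINC01764 against counts of UCA1 in each of the 36 libraries, with 0.5 added to both and log axes. Libraries of the 2 resistant sets and of 786-O parental cells lie on 1 line, at 22.1%, 21.6% and 23.4% of the summed counts for LINC01764, and A498 parental libraries hold at most 4 counts of UCA1.

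CYP4F11, a fatty acid and vitamin K hydroxylase, ran against UCA1 in A498 and with it in 786-O. It was found at 7.89 ± 0.690 CPM in the set labelled A498 resistant and 94.1 ± 3.35 CPM in A498 parental cells, with single libraries between 6.89 and 9.03 CPM in the libraries labelled resistant and between 90.1 and 99.6 CPM in parental cells. It was at 7.16 ± 0.561 CPM in 786-O resistant cells and 1.93 ± 0.252 CPM in 786-O parental cells, with ranges of 6.42 to 8.14 CPM and 1.59 to 2.34 CPM. In neither line did the groups overlap. The log2 change was -3.66 ± 0.034 in A498 as labelled and 1.79 ± 0.065 in 786-O. Between the set labelled A498 resistant and 786-O resistant it was 0.12 ± 0.048, and those groups overlap.

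CYP4F3, the leukotriene B4 omega-hydroxylase best known from neutrophils, had the same directions at lower levels. Single libraries held 0.222, 0.508 and 0.666 CPM (lowest, median and highest) in the set labelled A498 resistant, against 5.14, 6.01 and 7.13 CPM in A498 parental cells. They held 1.75, 1.99 and 2.69 CPM in 786-O resistant cells, against 0.0, 0.0511 and 0.138 CPM in 786-O parental cells, where 20 counts were found in all. No groups of a line overlap. The log2 change was -3.75 ± 0.118 in A498 as labelled and 5.19 ± 0.207 in 786-O. The 786-O value was 5.87 without parental avelumab replicate 2, 4.55 under avelumab alone and 6.05 under atezolizumab alone. The neutrophil markers ELANE, MPO and S100A8 summed to 0.0 to 0.05 CPM in the set labelled A498 resistant and 0.246 to 0.456 CPM in A498 parental libraries, and to 0.0 to 0.0751 CPM in 786-O resistant and 0.0 to 0.0301 CPM in 786-O parental libraries. They were thus highest where CYP4F3 was highest, through ELANE with 100 counts in A498 parental cells, while MPO was at 0 counts there and in both 786-O states, and their part in the CYP4F3 level was not tested.

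CYP4F12, which oxidises antihistamines and fatty acids, was near 0 only in 786-O parental cells. It was at 0.621 ± 0.149 CPM in the set labelled A498 resistant and 2.1 ± 0.447 CPM in A498 parental cells, a log2 change of -1.86 ± 0.146. In 786-O resistant cells it was at 2.17 ± 0.176 CPM, with 813 counts in all, while the 9 parental libraries held 2 counts in all and 7 of them held none. The ratio of CPM pooled over libraries was 382 (exact 95% counting interval 105 to 3158). No groups of a line overlap.

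CYP4F3 and CYP4F12 are the members that set the resistant libraries of both labels apart. CYP4F3 was at 0.480 ± 0.166 CPM in the set labelled A498 resistant and 2.16 ± 0.320 CPM in 786-O resistant cells, a log2 difference of -2.16 ± 0.145. CYP4F12 was at 0.621 ± 0.149 CPM and 2.17 ± 0.176 CPM in the same order, a log2 difference of -1.85 ± 0.139. Neither gene's libraries overlap between these sets, as holds for 30.1% of all genes. UCA1, LINC01764 and CYP4F11 overlap between them.

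The other CYP4F members were barely detected. CYP4F2, the liver enzyme of vitamin K and 20-HETE, had 14 counts in the set labelled A498 resistant against 4 in A498 parental cells, a ratio of pooled CPM of 4.84 (exact 95% counting interval 1.52 to 20.2). It had 17 counts in 786-O resistant cells against 1 count in 786-O parental cells, a ratio of 16.0 (2.50 to 667). CYP4F2 libraries overlap between the states of both lines, and its near identity with CYP4F3 leaves the origin of so few reads uncertain. CYP4F8 had 1 count in the set labelled A498 resistant, 1 in A498 parental cells and 0 in both 786-O states. CYP4F22 had 0 counts in the set labelled A498 resistant, 2 in A498 parental, 1 in the 786-O resistant set and 0 in 786-O parental cells. A count of 0 over 9 libraries allows up to 0.0136 CPM in the set labelled A498 resistant and 0.00853 CPM in 786-O parental cells, and such limits cover counting error only, since reads carry no molecular identifiers.

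**Figure D2:**
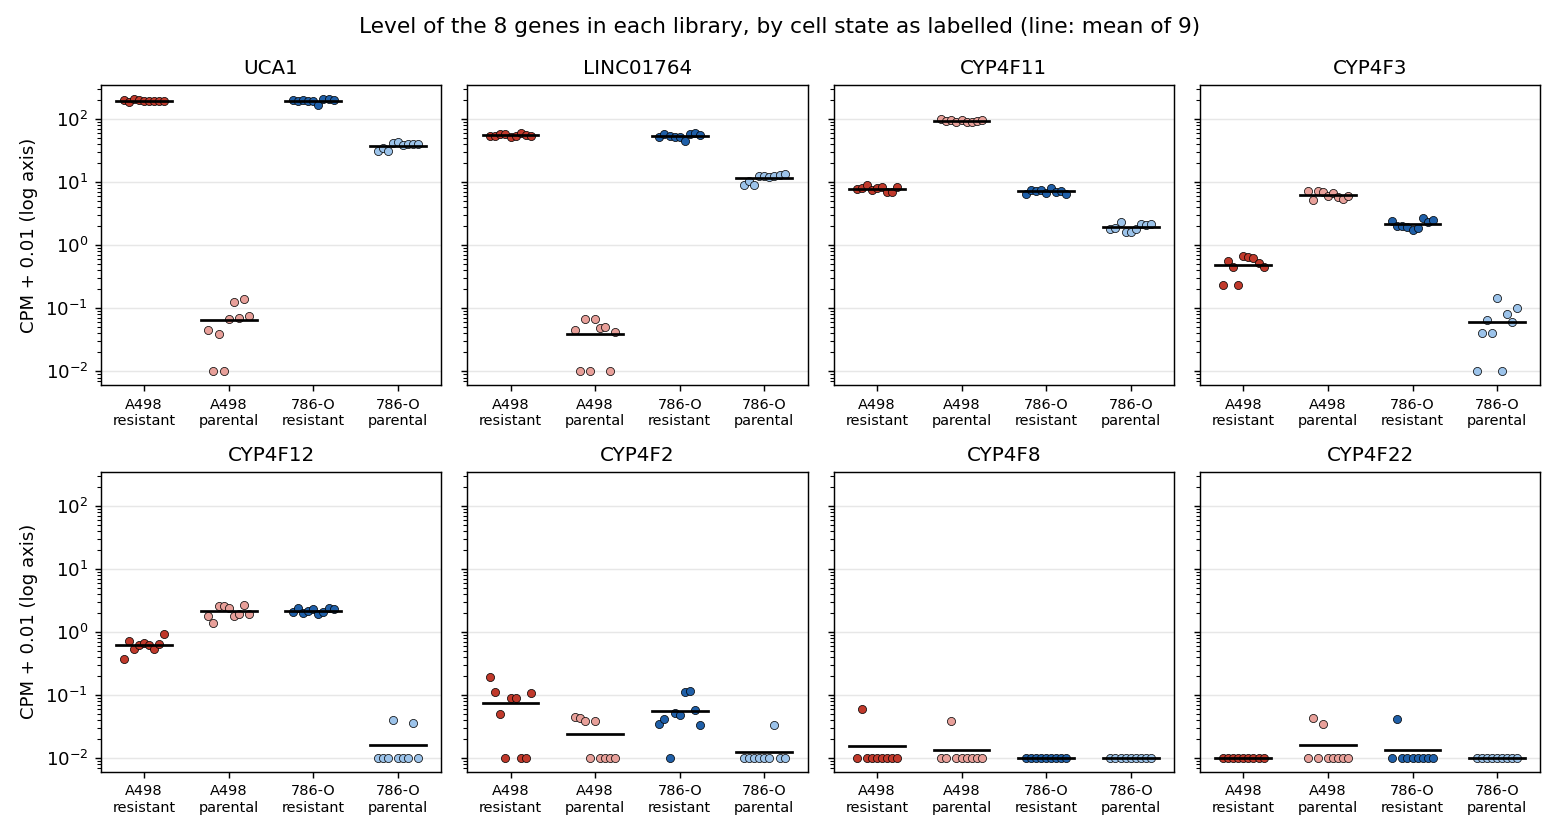
Level of each of the 8 genes in every library as CPM + 0.01 on a log axis, by cell state as labelled, with a line at the mean of 9 libraries. UCA1 and LINC01764 are high in 3 states and near 0 in A498 parental cells, CYP4F11 is highest in A498 parental cells at 94.1 CPM, CYP4F12 is near 0 in 786-O parental cells, and CYP4F8 and CYP4F22 have at most 2 counts in any state.

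Of the 8 genes, 5 passed the filter on low counts in each line: UCA1, LINC01764, CYP4F3, CYP4F11 and CYP4F12. In A498 as labelled, 2 of the 5 were higher and 3 lower in the resistant libraries, where 44.2% of all genes tested were called higher and 44.0% lower. In 786-O all 5 were higher, where 43.6% of all genes were called higher and 40.2% lower, 83.8% in all. In both lines all 5 also had libraries that do not overlap between the states, as did 66.6% of all genes tested in A498 and 53.3% in 786-O. The members were listed from these same levels, so nothing is read from these counts.

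For UCA1 and LINC01764 the 2 sets labelled resistant lead without differing beyond their spread, 786-O parental cells come next and A498 parental cells last. For CYP4F11 A498 parental cells lead, the 2 resistant sets follow with overlapping libraries, and 786-O parental cells are last. For CYP4F3 the order is A498 parental, 786-O resistant, the set labelled A498 resistant and 786-O parental, with no overlap between neighbours. For CYP4F12 786-O resistant and A498 parental cells lead with overlapping libraries, followed by the set labelled A498 resistant and by 786-O parental cells. Per kb of exon, CYP4F11 was at 23.4 CPM in A498 parental cells, against 1.13 for CYP4F3, 0.393 for CYP4F12 and 0.0132 for UCA1.

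The promoters of CYP4F11, CYP4F3 and CYP4F2 are shown for the directions of change, resistant against parental. CYP4F11 and CYP4F3 were both lower in A498 as labelled and both higher in 786-O, while CYP4F2 stayed near 0. CYP4F12 had these directions too, but no promoter was found for it. RefSeq sequences on GRCh38.p14 run from 250 bases before to 50 after a start, and were found for CYP4F2, CYP4F3, CYP4F8, CYP4F22 and, at 2 starts, CYP4F11. UCA1, LINC01764 and CYP4F12 are not shown. Capitals mark the CCAAT box, written CCAAT or, on the other strand, ATTGG.
CYP4F11, upstream start (chr19:15934818-15935117, minus strand): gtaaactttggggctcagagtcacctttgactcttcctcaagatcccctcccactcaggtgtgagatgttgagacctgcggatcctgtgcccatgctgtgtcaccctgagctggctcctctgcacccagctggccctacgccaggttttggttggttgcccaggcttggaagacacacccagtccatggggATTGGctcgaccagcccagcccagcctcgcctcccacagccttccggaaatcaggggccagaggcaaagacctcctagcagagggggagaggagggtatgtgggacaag
CYP4F2 (chr19:15898025-15898324, minus strand): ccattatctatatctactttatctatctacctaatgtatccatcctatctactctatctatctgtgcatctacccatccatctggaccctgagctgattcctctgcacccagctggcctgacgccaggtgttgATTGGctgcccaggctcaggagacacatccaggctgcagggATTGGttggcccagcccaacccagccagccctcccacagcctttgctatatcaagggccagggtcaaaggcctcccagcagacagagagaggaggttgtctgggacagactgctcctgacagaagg
CYP4F11, downstream start (chr19:15934480-15934779, minus strand): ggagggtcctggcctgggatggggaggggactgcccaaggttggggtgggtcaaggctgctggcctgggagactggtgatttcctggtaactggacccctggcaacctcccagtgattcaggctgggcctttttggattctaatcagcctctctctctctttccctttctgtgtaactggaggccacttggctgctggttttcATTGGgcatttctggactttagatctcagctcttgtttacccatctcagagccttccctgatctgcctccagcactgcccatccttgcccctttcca
CYP4F3 (chr19:15641062-15641361, plus strand): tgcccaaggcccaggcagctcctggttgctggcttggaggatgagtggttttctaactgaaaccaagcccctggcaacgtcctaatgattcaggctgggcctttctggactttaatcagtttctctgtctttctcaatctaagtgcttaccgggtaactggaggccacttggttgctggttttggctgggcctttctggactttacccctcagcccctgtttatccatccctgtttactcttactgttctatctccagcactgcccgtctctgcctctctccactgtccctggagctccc

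The downstream CYP4F11 promoter and that of CYP4F3 are identical at 78.1% of 265 aligned positions, the highest of all pairs, and the upstream CYP4F11 promoter and that of CYP4F2 at 74.6% of 280. The 2 promoters of CYP4F11 are identical at 60.1% of 258. The counts are summed over each gene and do not say which start was used. A CCAAT box occurs 2 times in the CYP4F2 promoter, 3 times in that of CYP4F8, once in each CYP4F11 promoter and not in those of CYP4F3 and CYP4F22, and 34.6% of all promoters in the table hold at least 1. The TATA box, searched as TATAAA on both strands, is in 11.5% of all promoters and in none of these windows. The same holds for the TEAD core, searched as GGAATG, found in 14.0% of all promoters. Neither the AP-1 motif, searched as TGACTCA and held by 4.95%, nor the hypoxia response core, searched as ACGTG and held by 21.4%, is in these windows.

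Within 300 kb of the members lie 40 other genes of the table, 14 of them inside the members' span. Among the 12 flanking genes tested, the median size of the log2 change was 0.314 in A498 as labelled and 0.246 in 786-O. Among the highest by level are TPM4 (a tropomyosin), RAB8A (a GTPase of vesicle traffic), FAM32A, WIZ (a zinc finger protein), AC008894.3, AC008894.2 and AKAP8L (a kinase anchor protein), all in the flanks. Their log2 changes ran from -0.20 for WIZ to 0.56 for AC008894.3 in A498 as labelled, and from -0.30 for RAB8A to 0.75 for AC008894.3 in 786-O. Opposite-strand exons cover 49.9% of AC008894.2, 37.8% of RAB8A, 31.8% of AKAP8L, 26.7% of AC008894.3 and 14.0% of FAM32A, whose values are uncertain.

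Inside the span, genes named here after their values were seen also differed between states. CLEC4OP, the LINC01835 transcript of the annotation, 23.8 kb above UCA1, was at 12.4 ± 1.22 CPM in the set labelled A498 resistant and 0.0183 ± 0.0177 CPM in A498 parental cells, but at 22.6 ± 2.81 CPM in 786-O resistant and 17.1 ± 0.672 CPM in 786-O parental cells. Its log2 change in 786-O was 0.29 ± 0.043, against 2.27 ± 0.031 for UCA1. AC005336.1, a processed pseudogene next to the end of CYP4F11 on the same strand, was at 1.17 ± 0.145 and 9.80 ± 0.604 CPM in the A498 states and 0.934 ± 0.219 and 0.169 ± 0.0794 CPM in the 786-O states, resistant first. The olfactory receptor gene OR10H1 had 1 count in A498 parental cells and was at 0.313 ± 0.123 CPM in the set labelled A498 resistant, 0.400 ± 0.0879 CPM in 786-O resistant and 0.523 ± 0.0954 CPM in 786-O parental cells. In the upper flank, HSH2D, an adaptor of haematopoietic cells, was at 2.81 ± 0.389 CPM in the set labelled A498 resistant and 0.0480 ± 0.0561 CPM in A498 parental cells, and at 2.70 ± 0.251 CPM in 786-O resistant and 0.0518 ± 0.0520 CPM in 786-O parental cells.

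**Figure D3:**
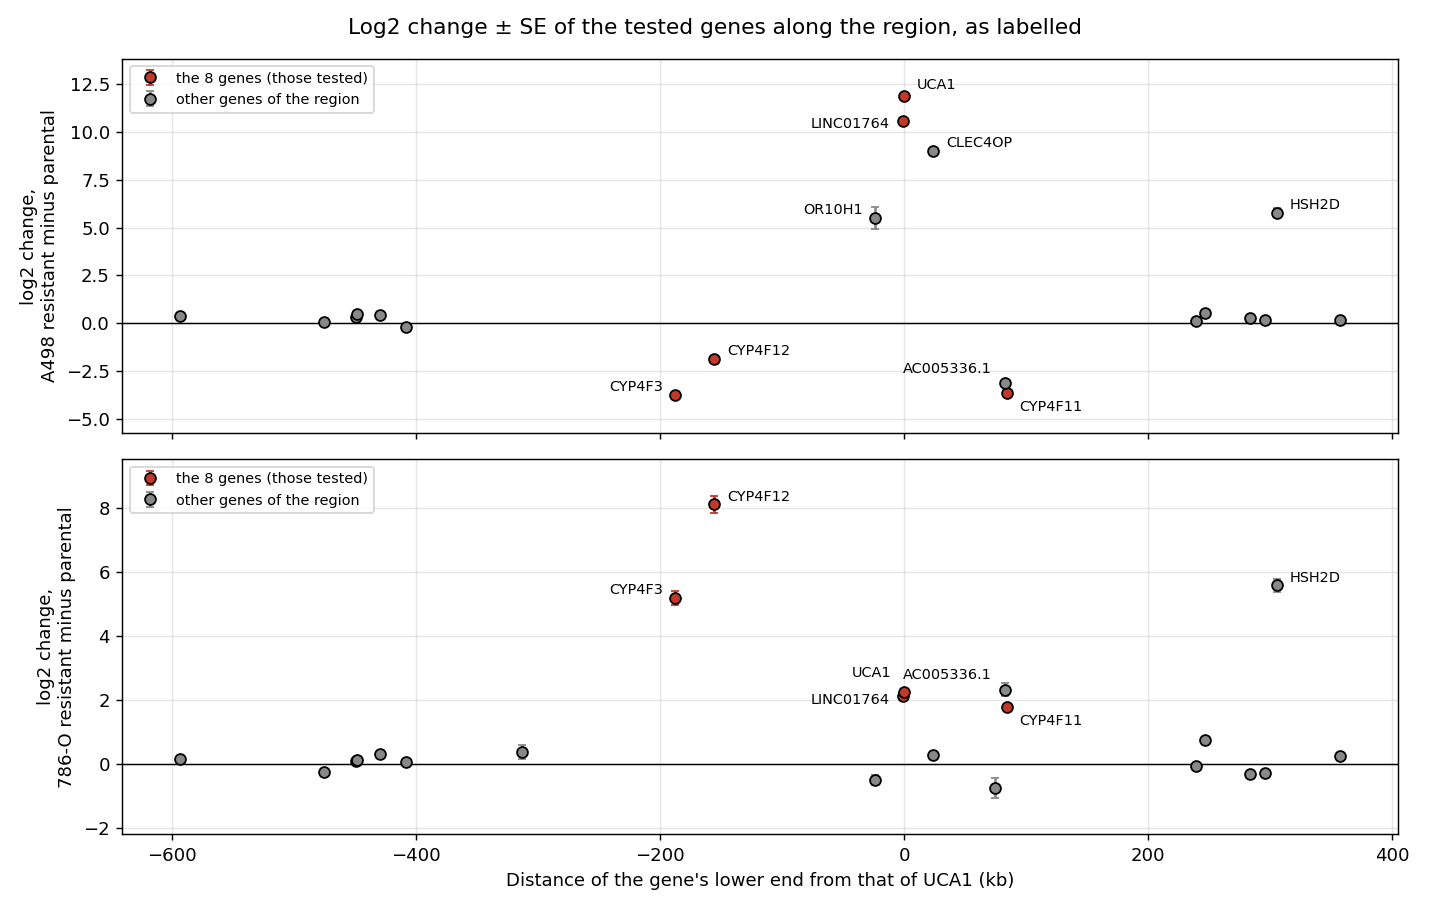
Fitted log2 change with its SE, resistant minus parental, of each tested gene of the region against its distance from UCA1 in kb, for A498 as labelled above and 786-O below. The SE comes from the F statistic and is too small where a state has few counts. UCA1, LINC01764 and CLEC4OP lie highest in A498 while CYP4F3, CYP4F11 and CYP4F12 lie below 0, and in 786-O all 5 members lie above 0, with the fitted values of CYP4F12 in 786-O and OR10H1 in A498 resting on 2 and 1 parental counts.

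Antibodies were compared inside each cell state by log2 differences from edgeR fits. The 12 groups whose CPM entered the choice of members include the antibody groups, so these differences carry no p-value.

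In 786-O parental cells UCA1 was at a lower level under atezolizumab than under either other antibody. It was at 40.0, 40.7 and 40.5 CPM under durvalumab, at 41.6, 43.8 and 38.2 CPM under avelumab and at 30.8, 34.3 and 30.9 CPM under atezolizumab. The atezolizumab libraries lie below all 6 others, and in 9.56% of all genes tested the atezolizumab libraries do not overlap the others, so nothing particular to UCA1 is read from it. The log2 difference was 0.32 ± 0.051 (SE) for durvalumab minus atezolizumab, 0.36 ± 0.051 for avelumab set against atezolizumab and -0.04 ± 0.050 for durvalumab minus avelumab. Total counts of these libraries ran from 32869829 to 42289271 under durvalumab, 33229687 to 58122896 under avelumab and 33367282 to 40775170 under atezolizumab.

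LINC01764, whose exons overlap those of UCA1, had the same order against atezolizumab. It was at 12.5, 13.1 and 13.6 CPM under durvalumab, 12.3, 12.7 and 12 CPM under avelumab and 8.95, 10.5 and 8.95 CPM under atezolizumab, without overlap between atezolizumab and the others. The log2 difference was 0.45 ± 0.072 for durvalumab minus atezolizumab and 0.38 ± 0.071 for avelumab minus atezolizumab. CYP4F11 in the same cells was at 2.15, 2.05 and 2.13 CPM under durvalumab, 1.59, 1.63 and 1.79 CPM under avelumab and 1.79, 1.89 and 2.34 CPM under atezolizumab, where atezolizumab overlaps both.

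**Figure D4:**
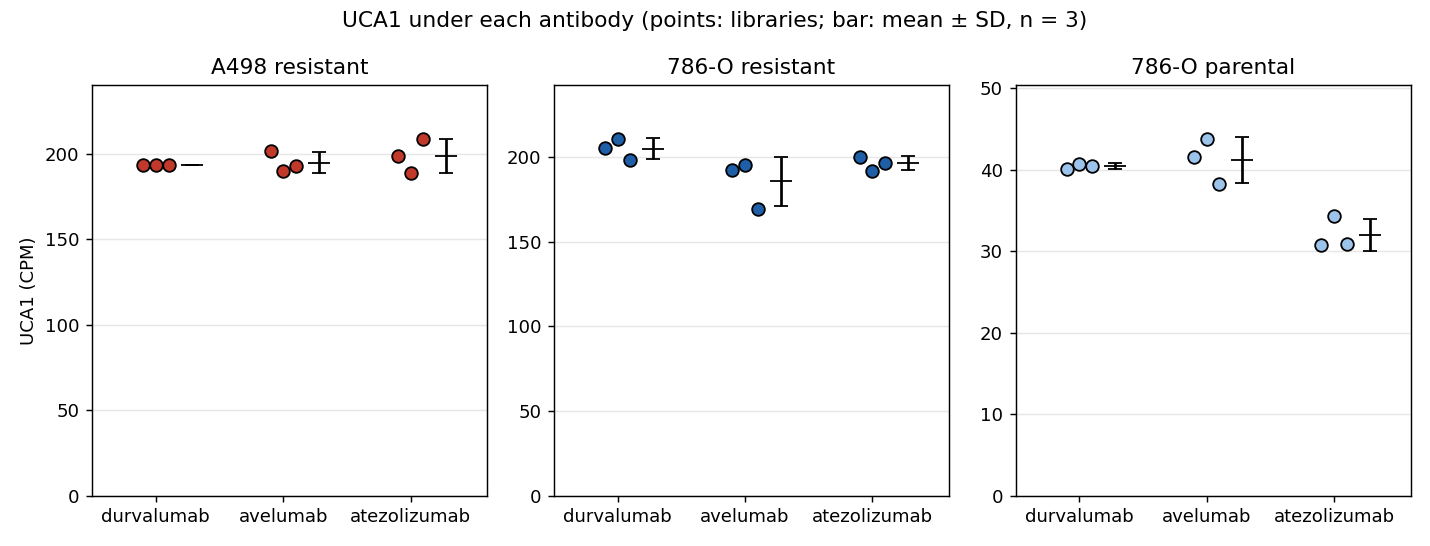
UCA1 in CPM under durvalumab, avelumab and atezolizumab in the 3 states that express it, with each library as a point and the mean ± SD of 3 beside it, on axes that start at 0. In 786-O parental cells the atezolizumab libraries, 30.8 to 34.3 CPM, lie below all others. In both sets labelled resistant the atezolizumab libraries overlap those of each other antibody, and in 786-O resistant cells the durvalumab libraries lie above those of avelumab.

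In 786-O resistant cells UCA1 was at 205, 211 and 199 CPM under durvalumab, 193, 195 and 169 CPM under avelumab and 200, 192 and 197 CPM under atezolizumab. The atezolizumab libraries overlap those of each other antibody there, while all durvalumab libraries lie above all avelumab libraries. The share of all genes with such a separation was not counted, so nothing particular to UCA1 is read from it. The log2 difference was 0.03 ± 0.053 for durvalumab minus atezolizumab, and the difference of avelumab from atezolizumab was -0.10 ± 0.053. For LINC01764 the durvalumab difference was 0.06 ± 0.058 and the avelumab difference -0.14 ± 0.058. Durvalumab minus avelumab was 0.14 ± 0.052 for UCA1 and 0.20 ± 0.057 for LINC01764.

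In the set labelled A498 resistant UCA1 was at 194, 194 and 194 CPM under durvalumab, 202, 190 and 193 CPM under avelumab and 199, 189 and 209 CPM under atezolizumab, and the antibodies overlap. The log2 difference was -0.04 ± 0.038 for durvalumab minus atezolizumab, and the difference of avelumab from atezolizumab was -0.03 ± 0.038. In A498 parental cells UCA1 had 9, 5 and 2 counts under durvalumab, avelumab and atezolizumab, too few to compare.

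Across the 12 group means, which fall into 4 cell states, the genes whose log2(CPM + 1) pattern was most like that of UCA1 were SEMA5A (a semaphorin of axon guidance), KBTBD11 (a BTB and kelch protein), DGLUCY (a mitochondrial D-glutamate cyclase), LSM14B and STRBP (RNA-binding proteins) and NCAM1 (a neural cell adhesion molecule). Their Pearson r ran from 0.998 to 0.999 among 12230 genes compared, as a description over points that share batch labels. SEMA5A was at 240 ± 11.7 CPM in the set labelled A498 resistant and 4.54 ± 0.472 CPM in A498 parental cells, and at 256 ± 22.0 CPM in 786-O resistant and 73.1 ± 9.36 CPM in 786-O parental cells. None of these 6 was among the 6 most alike by Spearman's rho or with a pseudocount of 0.1 in place of 1, so the names depend on the measure. With UCA1, LINC01764 had r = 0.998, CYP4F11 -0.786, CYP4F3 -0.677 and CYP4F12 -0.285.

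Among relatives of the members, CYP4V2, an omega-hydroxylase of the eye and other tissues, was the only 1 of 6 CYP4 genes elsewhere in the genome to pass the filter. It was at 25.1 ± 1.87 CPM in the set labelled A498 resistant and 16.1 ± 1.33 CPM in A498 parental cells. In 786-O, CYP4V2 was at 24.5 ± 1.76 CPM in resistant and 4.25 ± 0.619 CPM in parental cells (log2 change 2.42 ± 0.049, edgeR adjusted p = 5.24e-29). Of all genes tested in 786-O, 83.8% were called in either direction. Of 12 other symbols starting CYP4F, which are pseudogenes or noncoding copies, CYP4F29P on chromosome 21 and CYP4F26P on chromosome 9 reached 1 CPM in a group. CYP4F29P was at 1.36 ± 0.333 CPM in the set labelled A498 resistant with 1 count in A498 parental cells, and at 1.19 ± 0.331 CPM in 786-O resistant and 1.90 ± 0.25 CPM in 786-O parental cells, and as a near copy its reads are uncertain. CYP4F26P was at 0.371 ± 0.153 and 1.09 ± 0.240 CPM in the A498 states and 0.387 ± 0.123 and 0.145 ± 0.0904 CPM in the 786-O states, resistant first.

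Of the proteins that pass electrons to microsomal P450, 2 of 4 rose and 2 fell in 786-O resistant cells (median log2 change -0.04, against 0.03 over all genes), where 43.6% of all genes were called higher and 40.2% lower, 83.8% in all. CYB5A, a cytochrome b5, was at 12.5 ± 0.998 CPM in 786-O resistant and 5.63 ± 0.501 CPM in parental cells (log2 change 1.05 ± 0.052, edgeR adjusted p = 1.95e-18). CYB5R3, its reductase, changed by 0.08 ± 0.024, POR by -0.27 ± 0.025 and CYB5B, with 35.1% of its exons under a gene of the same strand, by -0.16 ± 0.025. In A498 as labelled all 4 fell (44.0% of all genes called lower, 88.2% in either direction), with CYB5A at 16.1 ± 0.442 CPM in the libraries labelled resistant and 30.5 ± 1.88 CPM in parental cells.

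Of 20 enzymes and receptors of leukotrienes and arachidonate, 13 were tested in 786-O, where 10 rose and 3 fell in resistant cells (median log2 change 1.26, against 0.03 over all genes), beside 43.6% of all genes called higher and 40.2% lower. CYP2J2, an arachidonate epoxygenase, was at 3.52 ± 0.270 CPM in 786-O resistant and 0.125 ± 0.0434 CPM in parental cells, a log2 change of 4.73 ± 0.125. ALOX5, the lipoxygenase that begins leukotriene synthesis, was at 2.48 ± 0.385 CPM in 786-O resistant and 0.0917 ± 0.0435 CPM in parental cells, a change of 4.69 ± 0.158. Its partner protein ALOX5AP was at 4.04 ± 0.448 CPM in 786-O resistant and 12.3 ± 2.98 CPM in parental cells, and EPHX2, the soluble epoxide hydrolase, at 0.0489 ± 0.0510 CPM in 786-O resistant and 0.605 ± 0.143 CPM in parental cells. In A498 as labelled, 6 of 14 rose and 8 fell in the libraries labelled resistant (median -0.34, against 0.01 over all genes), beside 44.2% of all genes called higher and 44.0% lower.

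All 5 genes of the vitamin K cycle were tested, and 4 fell in 786-O resistant cells while VKORC1 did not pass (edgeR adjusted p = 0.0864, with 58.1% of its exons under the opposite strand). The median log2 change was -0.51, against 0.03 over all genes, of which 40.2% were called lower. VKORC1L1, an epoxide reductase, was at 95.7 ± 4.90 CPM in 786-O resistant and 179 ± 2.90 CPM in parental cells. NQO1, a quinone reductase, changed by -0.71 ± 0.026 with 17.7% of its exons under the opposite strand, and GGCX, the gamma-carboxylase, by -0.51 ± 0.022. In A498 as labelled 1 rose and 4 fell (median -0.12, against 0.01 over all genes, of which 44.2% were called higher and 44.0% lower).

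Of 18 factors reported with UCA1 in the literature, 3 rose, 14 fell and 1 did not pass in 786-O resistant cells (median log2 change -0.23, against 0.03 over all genes, of which 43.6% were called higher and 40.2% lower). In A498 as labelled 10 rose, 7 fell and 1 did not pass (median 0.09, against 0.01 over all genes, of which 44.2% were called higher and 44.0% lower). CEBPA, a factor described at the UCA1 promoter, was at 2.17 ± 0.295 CPM in 786-O resistant and 0.173 ± 0.0822 CPM in parental cells (log2 change 3.48 ± 0.169). Its value is uncertain, with 43.4% of its exons under the opposite strand. STAT3 was at 183 ± 5.56 CPM in 786-O resistant and 102 ± 2.17 CPM in parental cells, EZH2, the histone methyltransferase, at 51.6 ± 3.32 and 89.2 ± 3.56 CPM, and HK2, a hexokinase, at 33.6 ± 3.05 and 49.5 ± 1.58 CPM, resistant first. HIF1A changed by -0.21 ± 0.044 in 786-O.

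Summed leukocyte markers (5 genes) ran from 0.399 to 0.835 CPM in 786-O resistant and 0.114 to 0.384 CPM in 786-O parental libraries, and from 0.444 to 0.820 CPM in the set labelled A498 resistant against 0.848 to 1.26 CPM in A498 parental libraries. CD14, of monocytes, was at 0.434 ± 0.109 CPM in 786-O resistant and 0.192 ± 0.0838 CPM in parental cells, and at 0.466 ± 0.143 CPM in the set labelled A498 resistant and 0.690 ± 0.113 CPM in A498 parental cells. CD79A was highest in A498 parental cells at 0.227 ± 0.0947 CPM, and CD3E was at 0 counts in both parental states. Summed hepatocyte markers (3 genes) ran from 20.8 to 25.9 CPM in 786-O resistant and 67.9 to 88.1 CPM in parental libraries, and from 21.1 to 27.6 CPM in the set labelled A498 resistant against 6.24 to 7.77 CPM in A498 parental libraries. Most of this was SERPINA1, which was at 22.5 ± 1.72 CPM in 786-O resistant and 79.1 ± 7.17 CPM in parental cells, while ALB averaged at most 0.0767 CPM in any state and APOA2, at 0 in both A498 states, had 134 counts in 786-O resistant cells, against 1 count in their parental cells. VWF of endothelium was at 0.464 ± 0.108 CPM in 786-O resistant and 0.00284 ± 0.00852 CPM in parental cells. Summed endothelial markers (3 genes) ran from 0.385 to 0.751 CPM in 786-O resistant and 0.0 to 0.0602 CPM in parental libraries, and from 0.465 to 0.833 CPM in the set labelled A498 resistant against 0.130 to 0.320 CPM in A498 parental libraries. Summed fibroblast markers (3 genes) ran from 9.66 to 11.4 CPM in 786-O resistant and 5.64 to 7.80 CPM in parental libraries, and from 19.6 to 22.7 CPM in the set labelled A498 resistant against 50.2 to 61.5 CPM in A498 parental libraries. In A498 LUM was at 16.2 ± 0.852 CPM in the libraries labelled resistant and 0.0142 ± 0.0245 CPM in parental cells, and COL1A1 at 4.70 ± 0.678 and 55.7 ± 5.06 CPM in the same order. Their part in the members' levels was not tested.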

How the data were processed

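RNA was sequenced from 36 libraries of 2 cell lines. A stranded kit for polyadenylated RNA was used, per the labels' protocols. The authors deposited raw read counts per gene and library. The submitters' processing notes list featureCounts 1.6.3, HISAT2 2.1.0, Trimmomatic 0.36.6 and bcl2fastq 2.19.0, with build GRCh38. Which annotation was counted, and whether by strand, is not given in the sources used. Of 45478 gene IDs, 43799 matched GENCODE release 29.

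CPM were computed over raw totals, and per kb over merged exon length. Tests used edgeR 4.0.16 in R 4.3.3 (quasi-likelihood, TMM sizes, filterByExpr with a minimum count of 10, Benjamini-Hochberg adjustment, threshold 0.05), fitted on all genes of 1 cell state for antibodies and of 1 line for interactions and state changes, after the code was tested on simulated data. Antibody and interaction tests of members were designed, but their p-values are not given as results, since the choice of members used CPM of the same groups. DESeq2 1.42.0 was an alternative. Coding sequences were aligned with MAFFT 7.526, and promoters pair by pair with the global aligner of Biopython 1.88. Counting intervals are exact at 95%, and floors take 3 counts over a cell state. Motifs were searched on both strands.

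Members and gene lists were chosen with earlier results of these data known. Named are all 8 members, the 6 genes most like UCA1 with at least 5 CPM in a group, genes within 300 kb by level (up to 8), and list genes with at least 1 CPM in a group. From longer lists only some of these are named, picked after their values were seen. Some items these rules name are not reported here.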

Additional observations from a re-analysis of the deposited data

Results flagged for a closer look

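Among 23 sets of 9 libraries looked at for a library far from the rest, 2 held one, where chance gives about 1 in 20. For UCA1 in 786-O resistant cells, avelumab replicate 3 was the lowest library at 169 CPM, and its gap to the next was 0.545 of the whole range. For the LINC01764 share of the pair in the libraries labelled A498 resistant, the highest library, at 23.7%, lay 0.538 of the range from the next.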

How the results depend on the processing

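Over 90 results, 1312 alternative values were counted as the same, 38 as weaker, 21 as stronger, 15 as moved and none as reversed. The same meant the same side of the threshold for a test, and a change within the spread of replicates for a level, share or state change. Leaving 1 library out cannot move a mean level or share beyond that spread. Such values therefore counted as the same whatever the data, and show nothing about stability. For counts of genes it meant a similar size. A difference between antibodies could count as reversed only where the main fit passed the threshold. Durvalumab minus avelumab for UCA1 in 786-O parental cells went from -0.04 to 0.01 without 1 library, and counted as the same. The 90 results include designed tests of members between antibodies, which support nothing, since the choice of members used CPM of the same groups. All genes called by the 786-O interaction test ran from 54 to 1156 when 1 library was left out, with 119 of 19369 in the main fit. The UCA1 log2 change in 786-O, 2.27, was 2.51 under atezolizumab alone, 2.06 under avelumab alone, 2.38 with raw library totals and 2.37 as a ratio of mean CPM. UCA1 in the libraries labelled A498 resistant was 187 CPM over TMM sizes, against 196 over raw totals. Of the 6 genes most like UCA1, 0 were shared with Spearman's rho, 0 with a pseudocount of 0.1 and 4 over the 36 libraries. The median log2 change of all genes was 0.01 with TMM and 0.09 with raw totals in A498, and 0.03 and 0.14 in 786-O.

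Equal replicate numbers did not pair libraries: over 36 pairs r ran from -0.140 to 0.186, with 2 over 0.1. With a replicate block the UCA1 log2 change was 2.27 in 786-O and 11.90 in A498 as labelled. Depth limits CYP4F2, CYP4F8 and CYP4F22, with at most 17 counts in any cell state.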
